A study of Aspergillus nidulans with 24 samples.

Results

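The comparison described here set the BglC strain of the filamentous fungus Aspergillus nidulans after 8 h in maltose medium against the same strain after 2 h. It rests on 6 of the 24 libraries in the table, 3 at 8 h and 3 at 2 h. It covers 9201 of the 10631 genes, those with at least 1 FPKM in at least 3 libraries. FPKM counts sequenced fragments per length of the gene and per depth of the library, so levels of different genes can be set side by side. BglC is a recombinant strain that makes a heterologous beta-glucosidase of glycoside hydrolase family GH3, an enzyme that releases glucose from short sugar chains. Its parent is A773, which carries the mutations pyrG89, wA3 and pyroA4 and was also sampled after 8 h and 2 h. The other recombinant strains are AbfA, which makes an alpha-arabinofuranosidase, and 1542, which makes a thermophilic mannanase. Mycelium of all 4 strains was grown in minimal medium with 1% glucose and then cultivated with 2% maltose and HEPES buffer at 37 °C, the maltose serving to switch on the promoter of the introduced gene. The 3 libraries of a group are labelled as biological replicates. The labels name neither the promoter nor the source of the enzyme, do not say whether a strain is 1 transformant, and do not say which strain received pyridoxine, uracil or uridine.

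Aspergilli break down starch and maltose with amylases, glucoamylases and alpha-glucosidases, whose genes are switched on by the transcription factor AmyR, while glucose represses genes for the use of other sugars through the repressor CreA. Mycelium can form conidiophores, the stalks that carry asexual spores, under the control of the regulator brlA, and the spores are coated with hydrophobins, small water-repellent surface proteins. Secondary metabolites such as sterigmatocystin and orsellinic acid are made by enzymes whose genes lie side by side in clusters. Genes are written below as a symbol with its locus where the names table gives one, as in chsA (AN4566). A name in parentheses after a locus, as in AN3402 (amyB), is the name under which a gene list written from general knowledge carries that locus, and the names table gives that locus no symbol.

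The 3 libraries at 8 h held 17659546 to 20683279 reads in genes and the 3 at 2 h held 16649427 to 18089787. The first principal component of log2(FPKM + 1) over these 6 libraries held 51.5% of the variance and separated the 2 times. The second held 29.8% and separated the replicates numbered 1, at both times, from those numbered 2 and 3. Replicate 2 at 2 h also stood apart in nitrate genes and in AN7539 (dewE), which are described below with and without it. The introduced gene had 7866, 9177 and 8808 FPKM at 8 h and 5805, 7704 and 8198 FPKM at 2 h, and ranked between 6 and 15 by level in the libraries of the strain, while A773 libraries listed it at 0.147 to 0.424 FPKM. Its groups overlapped, and the difference of 0.26 ± 0.25 (log2, ± SE) was not called (exact permutation test, two-sided, p = 0.2, where 3 against 3 libraries cannot go below 0.1). The gene pyrG (AN6157), which encodes orotidine 5′-phosphate decarboxylase and is mutated in the parent, had 234, 253 and 225 FPKM at 8 h and 215, 216 and 182 FPKM at 2 h. The libraries of pyrG did not overlap (exact p = 0.1), but its log2 difference of 0.22 ± 0.23 was not called in the fit over all genes (adjusted p 0.5).

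Between 8 h and 2 h, 2974 of the 9201 genes changed at an adjusted p under 0.05, which is 32.3% of all genes tested. Of these, 1996 (21.7% of all genes) were higher at 8 h and 978 (10.6%) were lower. The counts of every gene list below are to be read against these shares of all genes, which are not repeated with every list. A change of at least 2-fold was called in 623 genes, 356 higher and 267 lower. Among called genes with a name and no overlap between the times, the largest rises were in AN7539 (dewE), a hydrophobin gene, crnA, for nitrate uptake, and pmeA. The largest falls were in AN4871 (chiB), for a chitinase, AN6401 (dewC), another hydrophobin gene, and ivoB, for a conidiophore pigment enzyme. All changes of single genes are differences of log2(FPKM + 1), 8 h minus 2 h, ± standard error, with Benjamini-Hochberg adjusted p-values from limma over all 9201 genes. The median change of all genes was 0.08. After scaling between libraries by the median of ratios, which centres that median near 0, 1668 genes were called higher and 1416 lower, so that the share of higher genes among the called was 54.1% with that scaling and 67.1% without it. The fit that used only the 6 BglC libraries called 1778 genes, 1152 higher and 626 lower. The libraries of the 2 times did not overlap in 3709 genes, 40.3% of those tested.

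**Figure D1:**
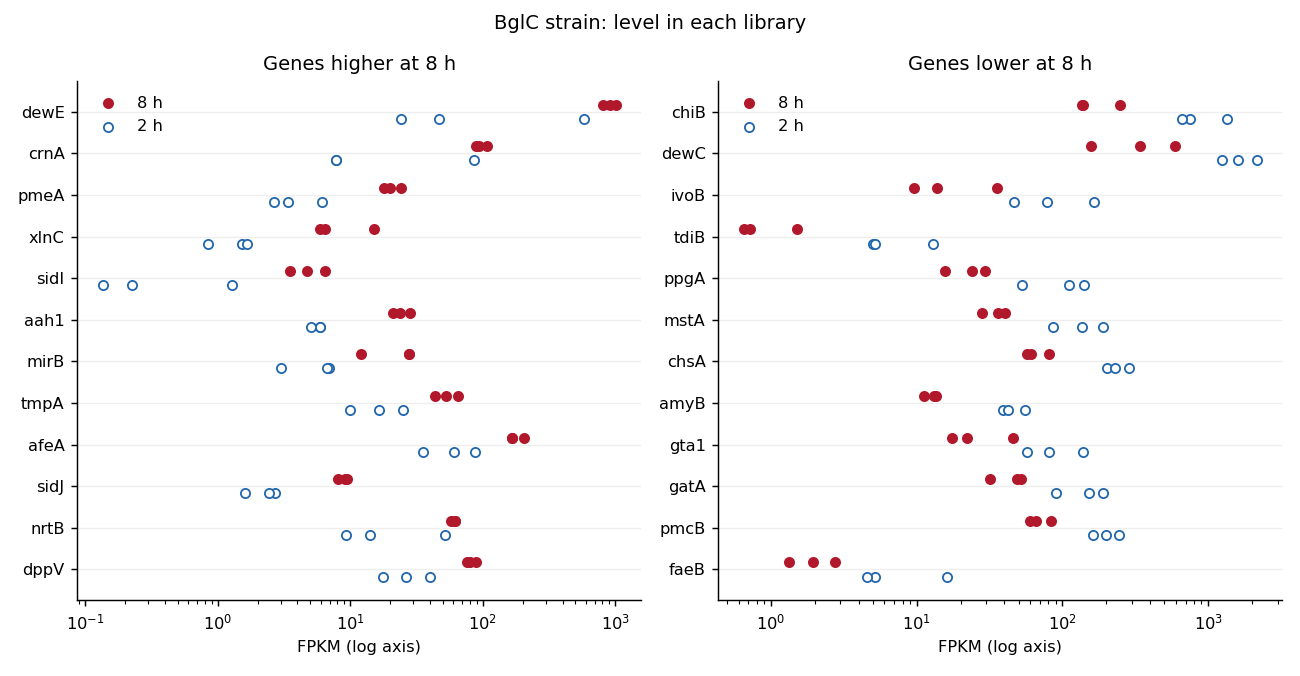
Level of the 12 largest rises (left) and 12 largest falls (right) among called genes that have a symbol or a listed name, in each BglC library, in FPKM on a log axis, with filled circles for 8 h and open circles for 2 h. The choice of genes requires that the libraries of the 2 times do not overlap, and replicate 2 at 2 h lies close to the 8 h libraries in dewE, crnA and nrtB.

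Among the rises with no such spread between the 2 h libraries, pmeA (AN3390), which bears the symbol of a pectin methylesterase, had 17.9, 20.0 and 24.1 FPKM at 8 h and 3.40, 2.66 and 6.14 FPKM at 2 h. The change was 2.14 ± 0.29 (adjusted p 3.8e-05). All 8 h libraries of pmeA exceeded those of 2 h, but no overlap was a condition of choice for the largest named changes. Non-overlap is therefore no separate evidence for these genes, nor for xlnC, sidI, sidJ, mirB, chiB, dewC, ivoB, amyB, mstA and chsA below. The gene aah1 (AN6078), named after the adenine deaminase of yeast, had 23.6, 28.5 and 20.9 FPKM at 8 h and 5.93, 5.96 and 5.05 FPKM at 2 h, a change of 1.92 ± 0.23 (adjusted p 8.5e-06). The 8 h libraries of aah1 were all over 20 FPKM and its 2 h libraries under 6 FPKM. The gene dppV (AN2572), for the secreted dipeptidyl peptidase V, had 76.3, 79.6 and 89.1 FPKM at 8 h and 17.6, 40.1 and 26.4 FPKM at 2 h, with a change of 1.58 ± 0.35. The genes afeA (AN0054) and tmpA (AN0055), the second for a membrane flavoprotein with a part in conidiation, rose by 1.63 ± 0.49 and 1.66 ± 0.62. The call of afeA ended without replicate 1 at 2 h, where its change was 1.30. That of tmpA ended when any BglC library except replicate 2 at 2 h was left out, with changes down to 1.34, and with either scaling between libraries. The gene gatA (AN2248), for the transaminase that breaks down the amino acid GABA, fell by 1.65, to 48.7, 31.6 and 52.2 FPKM at 8 h against 189, 152 and 90.2 FPKM at 2 h, and gta1 (AN4809) had 45.5, 22.0 and 17.5 FPKM at 8 h and 139, 57.2 and 80.5 FPKM at 2 h (change -1.69 ± 0.33).

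Among called genes of any naming, chosen as having no overlap between the times, the largest rises were in loci without a name. AN10893 had 68.7, 74.8 and 76.2 FPKM at 8 h and 3.56, 3.91 and 3.24 FPKM at 2 h, AN0785 had 26.1, 22.4 and 14.9 FPKM at 8 h and 0.615, 0.344 and 0.374 FPKM at 2 h, and AN5565 had 29.5, 60.9 and 42.5 FPKM at 8 h and 2.35, 3.35 and 2.09 FPKM at 2 h. Their changes were 4.02 ± 0.55, 3.91 ± 0.65 and 3.61 ± 0.53, and in each the lowest library at 8 h was many times the highest at 2 h. Among the falls, AN2913 had 26.7, 27.5 and 18.2 FPKM at 8 h and 362, 251 and 209 FPKM at 2 h, a change of -3.43 ± 0.39. AN3388 had 10.1, 8.70 and 6.32 FPKM at 8 h and 35.9, 222 and 60.8 FPKM at 2 h, and AN6476 had 13.8, 2.15 and 1.26 FPKM at 8 h and 44.0, 77.9 and 25.1 FPKM at 2 h. Their changes were -3.11 ± 0.64 and -3.26 ± 0.82, with a wide spread between the 2 h libraries of AN3388 and between the 8 h libraries of AN6476. With voom on recovered reads the call of AN6476 ended, at -3.75.

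The 3 most abundant called genes in each direction changed by 0.67 to 1.08 in size on the log2 scale. AN0833 had 16640.4, 18581 and 18743 FPKM at 8 h and 9162, 11472 and 12566 FPKM at 2 h, and AN11489 had 14910.1, 16937 and 16710.3 FPKM at 8 h and 5219.8, 10727 and 7917 FPKM at 2 h, with rises of 0.71 ± 0.18 and 1.08 ± 0.26. The gene hexA (AN4695), for the protein of the Woronin bodies that plug septal pores, had 5392, 5777 and 4949 FPKM at 8 h and 4004, 3240.0 and 2926 FPKM at 2 h, a rise of 0.67 ± 0.14. AN11705 fell by 1.04 on the log2 scale, to 10312, 13621 and 12506 FPKM at 8 h, against 23252, 25757 and 25318 FPKM at 2 h. AN0677 fell by 0.71, to 9539, 6765 and 8402 FPKM at 8 h, against 14522, 12667 and 13007 FPKM at 2 h. AN2530 had 11311, 7487 and 15469.5 FPKM at 8 h and 16863, 24402 and 20093 FPKM at 2 h, but its call (adjusted p 0.042) ended with the replicate block (adjusted p 0.079) and without either of replicates 1 and 2 at 8 h or of replicates 2 and 3 at 2 h, at -0.91 to -0.61.

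Genes of starch and maltose use moved in both directions. Of 9 listed genes, 1 rose, 3 fell and 5 were not called, with a median change of -0.17 beside 0.08 over all genes, of which 21.7% rose and 10.6% fell. The gene AN11143 (glaA), listed as a glucoamylase, which cuts glucose from the ends of starch chains, had 112, 101 and 113 FPKM at 8 h and 42.7, 48.0 and 63.4 FPKM at 2 h. All its 8 h libraries lay above all those of 2 h, and it rose by 1.09 ± 0.20 (adjusted p 0.00058). The gene AN3402 (amyB), listed as an alpha-amylase, which cuts within starch chains, had 13.5, 13.1 and 11.3 FPKM at 8 h and 38.9, 55.2 and 42.5 FPKM at 2 h, without overlap. It fell by 1.76 on the log2 scale (SE 0.46, adjusted p 0.0066). The alpha-glucosidase genes AN8953 (agdB) and agdC (AN0941) fell by 0.91 and 0.55. The agdB libraries at 8 h, with 569, 621 and 537 FPKM, overlapped those at 2 h, with 607, 1658 and 1249 FPKM, and its call ended without replicate 2 at 2 h (-0.60). The call of agdC ended without any 1 BglC library except replicate 1 at 2 h (-0.62 to -0.40), so that 1 of the 3 falls was called without replicate 2 at 2 h and none without both libraries numbered 2. The regulator AN2016 (amyR) had 36.1, 42.6 and 39.4 FPKM at 8 h and 33.8, 38.5 and 33.0 FPKM at 2 h, a difference of 0.16 ± 0.11 that was not called.

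Of 5 genes listed as sugar transporters, 3 fell and 2 were not called, beside 10.6% of all genes that fell, with a median of -0.91. Without both libraries numbered 2, 1 fall was called. AN8737 (mstA) had 28.1, 40.1 and 36.0 FPKM at 8 h and 85.8, 191 and 136 FPKM at 2 h, and AN1797 (hxtB) had 28.9, 50.6 and 56.9 FPKM at 8 h and 100.5, 149 and 111 FPKM at 2 h. The groups of both were apart, and their changes were -1.90 ± 0.52 and -1.42 ± 0.20. AN6923 (hxtA) fell by 0.91, with a call that ended without replicate 1 (-0.64) or replicate 2 (-0.84) at 2 h. AN5860 (mstE) had 900.3, 332 and 644 FPKM at 8 h and 326, 326 and 419 FPKM at 2 h, and was called higher only when replicate 2 at 8 h was left out (1.10). The repressor gene creA (AN6195) fell by 0.91 (SE 0.13, adjusted p 4.7e-05), to 409, 497 and 433 FPKM at 8 h against 887, 818 and 803 FPKM at 2 h, while creB (AN3587), for a deubiquitinating enzyme of the same pathway, had 41.5, 44.5 and 38.3 FPKM at 8 h and 37.1, 38.1 and 40.6 FPKM at 2 h and was not called.

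Of 7 genes for the use of acetate and for gluconeogenesis, 2 rose, 1 fell and 4 were not called (median -0.27). Of all genes 21.7% rose and 10.6% fell, which also stands beside the glycolysis and citric acid cycle counts below. The fall was in acuF (AN1918), which encodes phosphoenolpyruvate carboxykinase, the entry step of gluconeogenesis. It had 539, 303 and 367 FPKM at 8 h and 1014, 1017 and 1082 FPKM at 2 h, with no overlap, and changed by -1.40 ± 0.20 (adjusted p 5.6e-05). The rise of AN5626 (facA), listed as acetyl-CoA synthase, was 0.53 ± 0.20, and its call ended without any 1 BglC library except replicate 1 at 2 h (0.40 to 0.61) and with scaling between libraries (0.44). The other rise was in fbp1 (AN5604), for fructose-bisphosphatase, at 0.37, and neither rise was called with scaling or with voom. Of 11 glycolysis genes only AN6900 (tpiA), listed as triosephosphate isomerase, rose, with 312, 287 and 255 FPKM at 8 h and 201, 201 and 172 FPKM at 2 h (change 0.57 ± 0.12), and the other 10 were not called (median of the list 0.27), although AN8689 (glkA) and AN6037 (pgiA) were called higher in the 6 BglC libraries alone with the replicate block (adjusted p 0.046 and 0.042). Of 7 genes of the citric acid cycle, 2 rose, AN1003 (idpA) by 0.41 and AN8707 (fumA) by 0.43, and 5 were not called, and neither rise was called without replicate 2 at 2 h or without replicate 1 at 8 h. None of 5 genes for ethanol use was called by limma or by voom, nor had any an unadjusted p under 0.05 (0 of 5). With the replicate block AN8981 (alcS), at 0.95, was called higher (adjusted p 0.048), as it was without replicate 3 at 8 h, and AN8979 (alcA), listed as alcohol dehydrogenase, was called higher in the 6 libraries alone with the block (0.63, adjusted p 0.013).

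Of 8 tested genes for hydrolases of plant cell walls and their regulator xlnR, 4 rose, 1 fell and 3 were not called, and a ninth did not pass the filter on low values. Of all genes 21.7% rose and 10.6% fell. AN1818 (xlnC), listed as an endoxylanase, had 15.0, 5.87 and 6.45 FPKM at 8 h and 1.52, 1.66 and 0.840 FPKM at 2 h. It was low at both times, but all its 8 h libraries lay above those of 2 h, with a change of 2.02 ± 0.28 (adjusted p 5e-05). The regulator xlnR (AN7610) and AN6093 (axeA), listed as an acetylxylan esterase, rose by 0.40 and 0.44. AN5267 (faeB), listed as a feruloyl esterase, had 1.32, 2.74 and 1.95 FPKM at 8 h and 5.14, 16.1 and 4.58 FPKM at 2 h, a change of -1.51 ± 0.35. The rise of the cellobiohydrolase gene cbhB (AN0494), 0.67, was lost without any 1 of the 6 BglC libraries (0.60 to 0.72) and with the replicate block (adjusted p 0.067). The list held 1 rise without replicate 3 at 8 h, without replicate 3 at 2 h and with scaling between libraries, and 2 rises without replicate 1 at 8 h or replicate 2 at 2 h.

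The called genes for making ribosomes were all lower at 8 h, and the called genes of the proteasome, the complex that degrades tagged proteins, were all higher. Of 27 genes of ribosome biogenesis, 15 fell, 12 were not called and none rose, beside 10.6% of all genes that fell, with changes of -1.05 to -0.01 and a median of -0.39. The RNA helicase gene dbp3 (AN7424) had 62.8, 81.0 and 73.6 FPKM at 8 h and 169.7, 143 and 140.0 FPKM at 2 h, a change of -1.05 ± 0.17 (adjusted p 0.00013). The gene mrd1 (AN0421), for a factor of small-subunit assembly, had 27.3, 25.4 and 24.8 FPKM at 8 h and 47.2, 62.9 and 42.5 FPKM at 2 h, a change of -0.93 ± 0.16. In both genes the libraries of the 2 times were apart, as they were in the helicase genes drs1 (AN10125) and spb4 (AN3176), with changes of -0.83 and -0.81. The number of falls was 9 without replicate 3 at 8 h, 7 without both libraries numbered 2, 10 in the fit of only the 6 BglC libraries, and 9 to 17 over the 6 libraries left out in turn. Among 13 genes for ribosomal proteins and translation initiation, 1 rose, 1 fell and 11 were not called (median 0.08). The rise was in the initiation factor gene tif1 (AN2932), with 1063, 1210.1 and 1037 FPKM at 8 h and 932, 809 and 768 FPKM at 2 h, a change of 0.40 ± 0.11, and the fall in pab1 (AN4000), for the poly(A)-binding protein, was -0.41 and ended without replicate 1 or 2 at 2 h or replicate 2 at 8 h (-0.39 to -0.35).

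Of 15 proteasome genes, 10 rose, 5 were not called and none fell, beside 21.7% of all genes that rose, with changes of 0.07 to 0.68 and a median of 0.43. The core subunit gene pup1 (AN2085) had 139, 136 and 121 FPKM at 8 h and 108, 69.0 and 74.2 FPKM at 2 h, and the regulatory subunit gene rpn8 (AN5121) had 150.3, 137 and 124 FPKM at 8 h and 107, 77.2 and 85.1 FPKM at 2 h. Neither gene's groups overlapped, and their changes were 0.68 ± 0.14 and 0.62 ± 0.12. The core subunit pre2 (AN3932) and the regulatory ATPase rpt1 (AN2917) rose by 0.57 each. The number of rises was 4 without replicate 2 or replicate 3 at 2 h, 5 without replicate 2 at 8 h, 4 without both libraries numbered 2, 12 without both numbered 1, and 4 in the fit of only the 6 BglC libraries (6 with the replicate block).

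**Figure D2:**
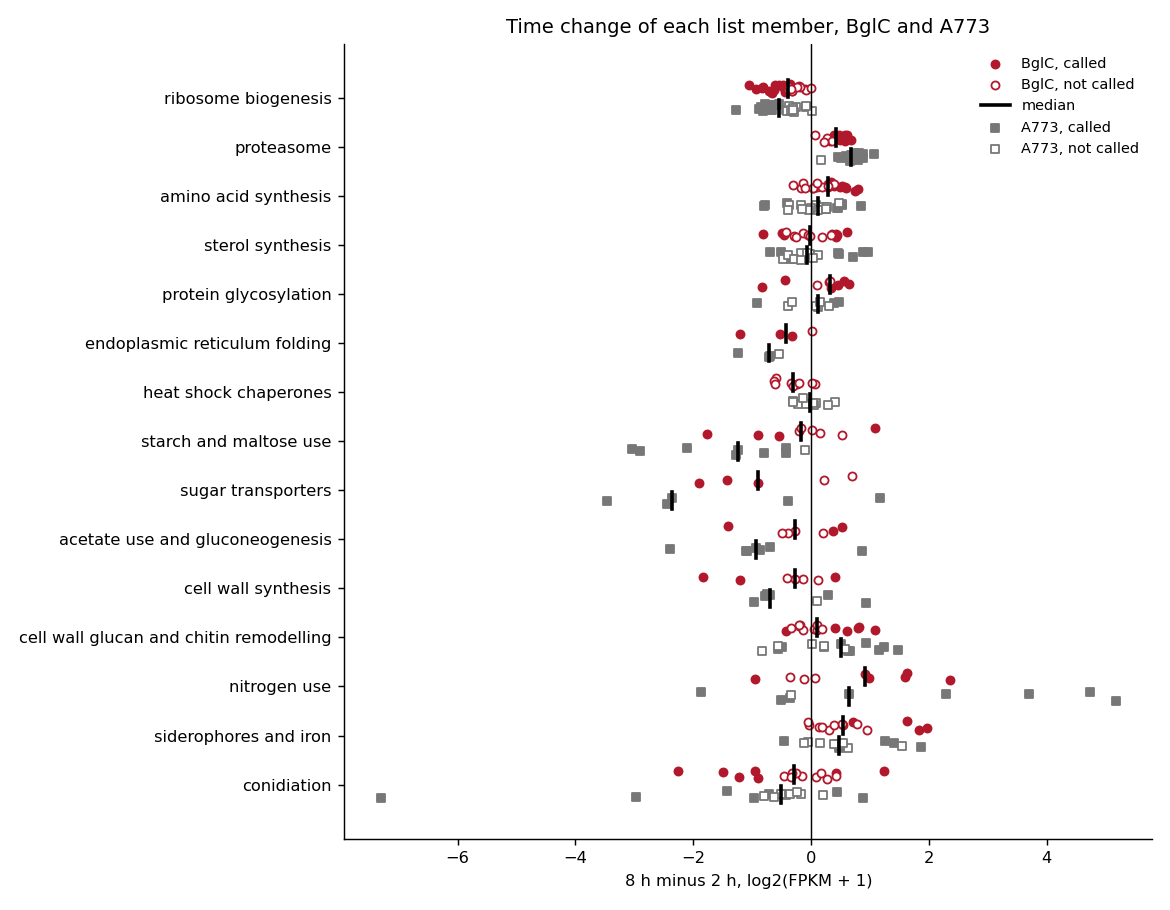
Change of each tested member of 15 gene lists, 8 h minus 2 h in log2(FPKM + 1), with BglC in the upper row of each list (circles) and A773 in the lower row (squares). Filled marks are called genes, open marks are not called and black bars are list medians. Ribosome biogenesis lies at or below 0 and the proteasome above 0 in BglC, and starch genes and sugar transporters lie further left in A773.

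Among 21 genes of amino acid synthesis, 9 rose, 12 were not called and none fell (median 0.29), beside 21.7% of all genes that rose. The gene trpB (AN6231), for tryptophan synthase, had 92.7, 104 and 89.3 FPKM at 8 h and 67.1, 48.3 and 50.2 FPKM at 2 h, and argB (AN4409), for ornithine carbamoyltransferase, had 198, 182 and 152 FPKM at 8 h and 133, 95.3 and 89.6 FPKM at 2 h. Both rose without overlap, by 0.79 ± 0.15 and 0.75 ± 0.13. The number of rises in the list was 4 without replicate 3 at 2 h or replicate 1 at 8 h, 5 with scaling between libraries, 3 without both libraries numbered 2 and 2 in the fit of only the 6 BglC libraries. Sterol synthesis was divided, with 6 of 17 genes higher, 3 lower and 8 not called (median -0.03), beside 21.7% and 10.6% of all genes. Its falls were in erg2 (AN0451), erg24B (AN4094) and hmg1 (AN3817), the last for the rate-limiting HMG-CoA reductase. The libraries of hmg1 at 8 h, with 52.0, 61.8 and 51.6 FPKM, lay below those at 2 h, with 82.4, 70.4 and 75.1 FPKM (change -0.46 ± 0.11), and erg2 changed by -0.82 ± 0.22. The call of erg24B (-0.50) ended without replicate 1 or 3 at 8 h or replicate 2 at 2 h, at -0.44 to -0.42. The farnesyl diphosphate synthase gene erg20 (AN8012) rose by 0.62, a call that ended without replicate 2 at 2 h (0.42) or replicate 1 at 8 h (0.47). The list held 3 and 2 rises without those libraries.

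Of 4 genes for protein folding in the endoplasmic reticulum, 3 fell and 1 was not called (median -0.42), and 1 fall was called without replicate 2 at 2 h or replicate 3 at 8 h. The regulator of the unfolded protein response, hacA (AN9397), had 653, 1042 and 629.6 FPKM at 8 h and 1887, 1462 and 1929 FPKM at 2 h. Its 8 h libraries all lay below those of 2 h, a change of -1.21 ± 0.27 (adjusted p 0.0019). The chaperone gene bipA (AN2062) fell by 0.53 and the disulfide isomerase gene pdiA (AN7436) by 0.32, while the calnexin gene clxA (AN3592) was not called at 0.02 ± 0.16. The calls of bipA and pdiA ended without replicate 2 at 2 h (-0.39 and -0.32) or replicate 3 at 8 h (-0.49 and -0.31), and that of pdiA also without replicate 1 at 2 h or replicate 2 at 8 h (-0.25 each). None of 10 heat shock chaperone genes was called by limma or by voom with all libraries, and 0 had an unadjusted p under 0.05 (median -0.31). The gene hsp78 (AN1163), at -0.61, was called in the 6 BglC libraries alone with the replicate block (adjusted p 0.038). AN0858 (hsp104), at -0.64, was called lower without replicate 1 at 2 h (-0.90) or replicate 3 at 8 h (-0.93). Of 9 protein glycosylation genes, 5 rose, 2 fell and 2 were not called, beside 21.7% of all genes that rose and 10.6% that fell. The mannosyltransferase gene pmt2 (AN5105) fell by 0.83, to 159, 189 and 155 FPKM at 8 h against 324, 257 and 315 FPKM at 2 h, and alg3 (AN0104), for another mannosyltransferase, rose by 0.55 ± 0.13. The other rises were in pmi1 (AN0667, 0.65), alg10 (AN5902, 0.46), pmt4 (AN1459, 0.34) and pmt1 (AN4761, 0.30), and the other fall in gmtA (AN8848, -0.45). The number of rises in that list was 2 to 3 without any 1 of replicates 1 and 2 at 8 h and replicates 2 and 3 at 2 h, and 1 fall was called with the replicate block and without any 1 library except replicate 2 at 2 h.

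Of 9 genes of nitrogen use, 5 rose, 1 fell and 3 were not called, with a median of 0.91. Over all genes 21.7% rose and 10.6% fell. The nitrate transporter gene crnA (AN1008) had 108, 88.6 and 93.9 FPKM at 8 h and 7.85, 86.6 and 7.84 FPKM at 2 h. The nitrate reductase gene niaD (AN1006) had 257, 240.4 and 227 FPKM at 8 h and 29.3, 244 and 63.7 FPKM at 2 h, and AN0399 (nrtB), listed as the second nitrate transporter, had 61.8, 57.7 and 61.4 FPKM at 8 h and 9.33, 52.2 and 14.1 FPKM at 2 h. In all 3 genes replicates 1 and 3 at 2 h were low, while replicate 2 at 2 h was close to the 8 h libraries, and in niaD it lay among them. The changes were 2.36 ± 0.89, 1.63 ± 0.56 and 1.60 ± 0.51, with adjusted p-values of 0.047, 0.031 and 0.022. Without replicate 2 at 2 h they were 3.46, 2.45 and 2.30. The calls of crnA and niaD ended when any other BglC library was left out, at 1.81 to 2.42 and 0.94 to 1.67. That of nrtB ended without replicates 1 or 3 of either time, at 1.11 to 1.59, and those of crnA and niaD with voom (adjusted p 0.058 and 0.052). AN7463 (meaA), listed as the ammonium transporter, rose by 0.98 ± 0.24, a call that held without each library but not in the fit of only the 6 BglC libraries (adjusted p 0.077), where none of the 5 rises was called and 4 were with the replicate block. The list held 1 rise without replicate 1 or replicate 3 of either time, 3 without replicate 2 at 8 h or with scaling between libraries, and 2 with voom. The nitrite reductase gene niiA (AN1007) had 948, 799 and 903 FPKM at 8 h and 234, 962 and 453 FPKM at 2 h, where replicate 2 was again the high one (change 0.91 ± 0.30). The fall was in AN4376 (gdhA), listed as the NADP-dependent glutamate dehydrogenase, which had 959.6, 959 and 1119 FPKM at 8 h and 1810.0, 2254 and 1825 FPKM at 2 h, without overlap (change -0.95 ± 0.16).

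**Figure D3:**
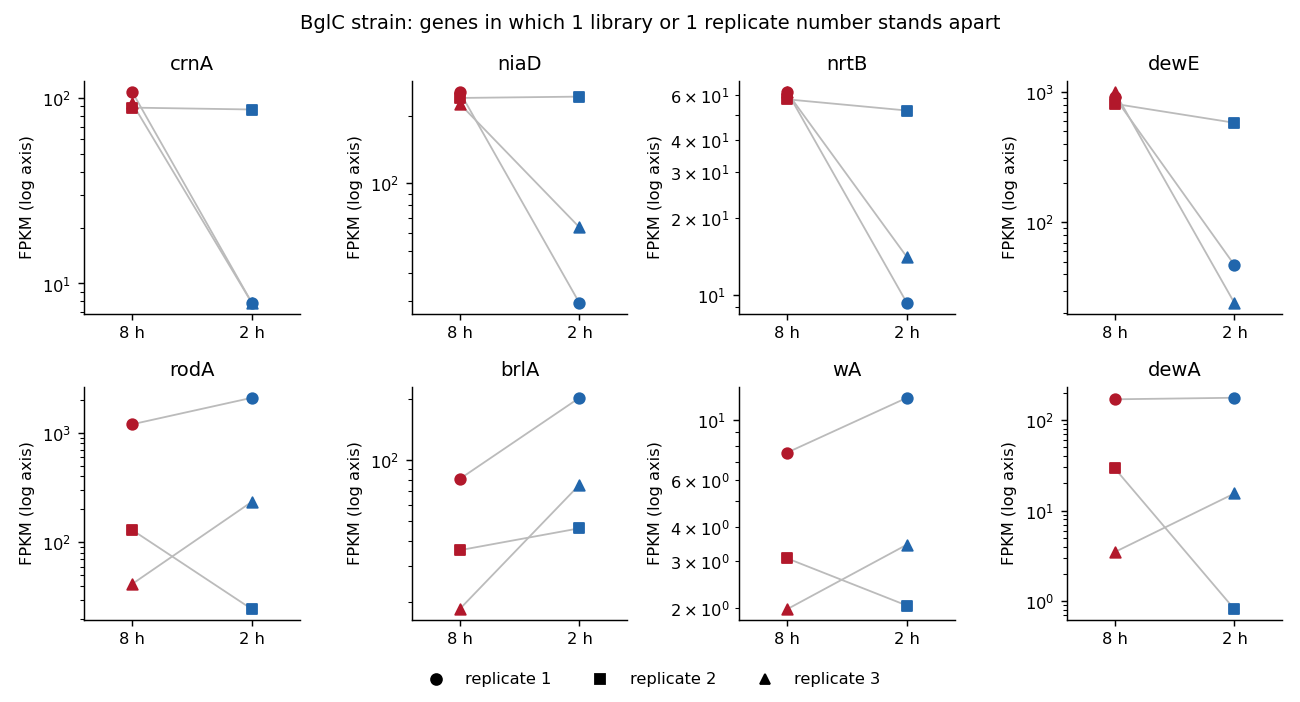
Level of 8 genes in each BglC library, in FPKM on a log axis, with 8 h left and 2 h right in every panel, marker shapes for the replicate number and grey lines joining libraries of the same number. In crnA, niaD, nrtB and dewE replicate 2 at 2 h lies near the 8 h libraries, and in rodA, brlA, wA and dewA replicate 1 is the highest at both times.

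Of 14 genes for siderophores, the secreted iron carriers, and for iron control, 4 rose, 10 were not called and none fell (median 0.53). The share of called genes was near the 32.3% over all genes, of which 21.7% rose. The gene sidJ (AN6239), for an esterase of siderophore breakdown, had 9.38, 9.21 and 8.14 FPKM at 8 h and 2.69, 2.43 and 1.60 FPKM at 2 h, a change of 1.63 ± 0.30 (adjusted p 0.00044). The synthesis gene sidI (AN0609), for a ligase of siderophore side chains, had 3.52, 6.42 and 4.69 FPKM at 8 h and 0.224, 1.29 and 0.136 FPKM at 2 h. The transporter gene mirB (AN8540) had 12.1, 27.6 and 27.9 FPKM at 8 h and 2.98, 6.91 and 6.68 FPKM at 2 h, with replicate 1 the lowest at both times. The libraries of these 3 genes did not overlap, with changes of 1.97 ± 0.64 in sidI and 1.83 ± 0.67 in mirB. The fourth rise, 0.72 ± 0.20, was in hapX (AN8251), the regulator of the response to iron shortage. The call of sidI ended without replicates 1 or 3 at 2 h or 2 or 3 at 8 h (1.78 to 1.98), with a pseudocount of 5 and with voom. That of mirB ended without any BglC library except replicate 1 at 8 h (1.50 to 2.00), and with either scaling. The number of rises was 2 without replicate 1 at 2 h or without replicate 2 or 3 at 8 h, and 1 without both libraries numbered 1. Of 4 zinc transporter genes, zrfB (AN3799) and zrfC (AN1833), which carry zinc into the cell, rose and 2 were not called. The gene zrfB had 33.0, 26.9 and 34.8 FPKM at 8 h and 16.2, 18.2 and 15.0 FPKM at 2 h, and zrfC had 2.64, 2.74 and 4.15 FPKM at 8 h and 0.574, 1.45 and 0.523 FPKM at 2 h. Both were without overlap, with changes of 0.90 ± 0.12 and 1.19 ± 0.20 that were called without each library. Of 4 calcium pump genes, pmcB (AN4920), for a vacuolar-type calcium ATPase, fell by 1.52 (SE 0.18), to 59.6, 83.1 and 65.9 FPKM at 8 h against 198, 244 and 163 FPKM at 2 h. The fall of pmcA (AN1189), 0.57, ended without replicate 1 of either time or replicate 3 at 2 h (-0.56 to -0.38) and with the replicate block (adjusted p 0.07).

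Of the listed chitin synthase genes, chsA and chsG fell, while chsB (AN7032) and chsD (AN1046) were not called. A chitinase gene fell as well. Of 7 cell wall synthesis genes, 1 rose, 2 fell and 4 were not called (median -0.27), beside 21.7% of all genes that rose and 10.6% that fell. The chitin synthase gene chsA (AN4566) had 57.3, 80.7 and 60.7 FPKM at 8 h and 284, 203 and 228 FPKM at 2 h, and chsG (AN2523) had 204, 243 and 212 FPKM at 8 h and 528, 495 and 503 FPKM at 2 h. The times were apart in both genes, with changes of -1.83 ± 0.25 and -1.21 ± 0.15 that were called without each library. The rise was in gel1 (AN7657), for a glucan-elongating enzyme of the wall, at 0.41, and it was not called without replicate 2 of either time (0.33 and 0.36). AN4871 (chiB), listed as the chitinase of autolysis, had 249, 139 and 136 FPKM at 8 h and 1344, 757 and 662 FPKM at 2 h, a change of -2.38 ± 0.38 (adjusted p 0.00013). Its highest 8 h library was well below its lowest 2 h library. Of the 6 genes in that list of autolysis hydrolases and proteases, 3 fell and 3 were not called. The fall of the metalloprotease gene mep20 (AN7962), 1.45, ended with the replicate block (adjusted p 0.073) and without any 1 BglC library except replicate 1 at 8 h (-1.61 to -1.25). That of AN0472 (engA), listed as an endoglucanase, 0.92, ended without replicate 1 at 2 h or replicates 2 or 3 at 8 h (-0.81 to -0.52). Only chiB was called in this list when 1 of those 3 libraries was left out. Of 15 genes for remodelling of glucan and chitin, 5 rose, 1 fell and 9 were not called (median 0.09), beside 32.3% of all genes that were called. The glucanase genes eng2 (AN2385) and exgO (AN0779) and the wall protein gene btgE (AN1551) rose by 1.09 ± 0.23, 0.81 ± 0.17 and 0.80 ± 0.12. The libraries of btgE, with 646, 546 and 526 FPKM at 8 h and 346, 358 and 284 FPKM at 2 h, did not overlap. The remaining calls in that list were the rises of sun1 (AN6697, 0.61) and gel1 and the fall of exg2 (AN7533, -0.42), which was not called without replicate 3 of either time or replicate 1 at 8 h. The starvation kinase gene of autophagy, atg1 (AN1632), rose by 1.03 ± 0.20, with 75.6, 102 and 106 FPKM at 8 h and 42.6, 55.1 and 39.7 FPKM at 2 h, and the other 4 autophagy genes were not called.

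Of 16 conidiation genes, 2 rose, 5 fell and 9 were not called (median -0.29), beside 21.7% of all genes that rose and 10.6% that fell. The gene ivoB (AN0231), for an oxidase of conidiophore pigment, had 35.6, 13.8 and 9.57 FPKM at 8 h and 165, 46.8 and 78.5 FPKM at 2 h, a change of -2.26 ± 0.42 (adjusted p 0.00054). The regulator medA (AN6230) had 207, 234 and 172 FPKM at 8 h and 606, 543 and 581 FPKM at 2 h, a change of -1.50 ± 0.33. The early activator gene flbD (AN0279) rose by 1.23 ± 0.22, with 95.5, 114 and 130.4 FPKM at 8 h and 37.0, 57.7 and 49.6 FPKM at 2 h. The libraries of these 3 genes did not overlap, and their calls held without each library. The regulator brlA (AN0973) had 80.6, 35.9 and 18.4 FPKM at 8 h and 203, 46.0 and 75.5 FPKM at 2 h, which overlapped. Its fall of 1.22 (adjusted p 0.04) was not called without replicates 1 or 3 at 2 h or 2 or 3 at 8 h (-1.34 to -0.63). The other called genes were wetA (AN1937, -0.91), a late spore regulator, flbE (AN0721, -0.96) and fluG (AN4819, 0.42), both upstream activators. The number of falls in the list was 3 without replicate 3 of either time. At both times replicate 1 held the most RNA of conidiophore and spore markers. The summed level of the 9 markers brlA, abaA, wetA, yA, wA, ivoA, ivoB, rodA and dewA was 1516, 225 and 85.6 FPKM at 8 h and 2684, 135 and 428 FPKM at 2 h, and no marker was at 0 in any of these libraries. Most of it was rodA (AN8803), the main spore hydrophobin, with 1196, 129.9 and 41.6 FPKM at 8 h and 2091, 24.5 and 235 FPKM at 2 h. In such bulk samples fewer cells of a type and less RNA per cell cannot be told apart, and the part of these markers in the changes of other genes was not tested. Without both libraries numbered 1, the list held 5 falls and 2 rises.

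Of 6 hydrophobin genes, 1 was higher, 1 lower and 4 not called, a share of called genes near the 32.3% over all genes. AN7539 (dewE) had 915, 813 and 1008 FPKM at 8 h and 47.0, 581 and 24.02 FPKM at 2 h, so that replicate 2 at 2 h stood near the 8 h libraries and the other 2 h libraries far below. The rise was 3.36 ± 0.89 (adjusted p 0.007), 4.71 without replicate 2 at 2 h, and not called without replicate 3 at 2 h (2.44). AN6401 (dewC) had 592, 339.6 and 158 FPKM at 8 h and 2159, 1246 and 1597 FPKM at 2 h. These did not overlap, and the change was -2.36 ± 0.34 (adjusted p 5.6e-05). AN0940 (dewD) had 31.6, 2.69 and 0.740 FPKM at 8 h and 90.0, 4.52 and 16.9 FPKM at 2 h, and dewA (AN8006) had 169, 29.4 and 3.47 FPKM at 8 h and 176, 0.813 and 15.5 FPKM at 2 h. In both, the replicates numbered 1 were the highest at their time, the 2 times overlapped, and neither was called, although dewD was called lower with the replicate block (adjusted p 0.048) and without replicate 2 at 2 h or replicate 1 at 8 h (-2.76 and -3.04). The pheromone precursor gene ppgA (AN5791) of the sexual cycle fell by 2.02 (SE 0.34, adjusted p 0.00025), to 15.7, 29.5 and 23.9 FPKM at 8 h against 52.5, 111 and 140.1 FPKM at 2 h. The light-dependent regulator veA (AN1052) and its partner velB (AN0363) rose by 0.49 ± 0.15 and 0.42 ± 0.12, and laeA (AN0807) was not called at 0.18 ± 0.14. Neither veA nor velB was called without replicate 3 at 2 h (0.46 and 0.34), nor velB without replicate 2 at 8 h (0.34).

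Of 21 genes of the cluster for sterigmatocystin, a toxic polyketide, 15 passed the filter on low values, of which 5 fell, 10 were not called and none rose (median -0.61). The share of called genes was near the 32.3% over all genes. AN7823 had 8.70, 16.2 and 5.31 FPKM at 8 h and 85.4, 86.3 and 60.1 FPKM at 2 h, a change of -2.92 ± 0.82 (adjusted p 0.01). AN7820 had 0.708, 0.408 and 0.739 FPKM at 8 h and 6.28, 5.18 and 3.04 FPKM at 2 h, a change of -1.81 ± 0.23. Both genes had no overlap between times, and AN7822 (-1.09), AN7821 (-1.22) and AN7819 (-1.07) fell too. The number of falls was 5 to 12 over the libraries left out in turn, with 12 without replicate 1 at 8 h. Both tested penicillin genes fell, AN2622 (ipnA), listed as isopenicillin N synthase, by 1.85 and AN2623 (aatA) by 0.98. Neither was called without replicate 1 at 2 h or without replicate 2 or 3 at 8 h, nor in the fit of only the 6 BglC libraries, and replicate 1 at 2 h was the highest library of ipnA, which had 12.8, 3.45 and 4.78 FPKM at 8 h and 97.9, 4.72 and 28.2 FPKM at 2 h. AN8514 (tdiB), listed as the prenyltransferase of terrequinone synthesis, fell by 2.06, with a call that ended without replicate 2 of either time or replicate 3 at 8 h (-1.98 to -1.67), with a pseudocount of 5 and with voom. None of 16 tested austinol genes, 11 genes of the dba polyketide cluster, 5 orsellinic acid genes, 5 monodictyphenone genes or 4 emericellamide genes was called by limma or by voom, where 0 austinol, 0 dba and 0 orsellinic acid genes, 1 monodictyphenone gene and 2 emericellamide genes had an unadjusted p under 0.05. In the 6 BglC libraries alone with the replicate block, AN7894 of the dba cluster was called lower (adjusted p 0.035) and AN2548 (easC) higher (adjusted p 0.014), and the list of terrequinone genes held 3 falls. Without replicate 1 at 2 h, AN7894 (-2.60) and AN7896 (-2.09) of the dba cluster were called lower, and easC (0.92) and AN2545 (easA, 0.52) higher. The gene easC was also called higher with the filter of at least 5 FPKM in 3 libraries (0.70). AN7894 of the dba cluster had 6.46, 12.3 and 2.38 FPKM at 8 h and 5.59, 68.6 and 24.7 FPKM at 2 h, with replicate 2 at 2 h the highest. AN9253 of the austinol cluster had 6.89, 1.22 and 0.151 FPKM at 8 h and 19.1, 0.295 and 1.88 FPKM at 2 h, with replicate 1 the highest at both times, as for the spore markers. AN0146 of the monodictyphenone cluster had 1.24, 36.9 and 77.5 FPKM at 8 h and 0.519, 5.15 and 10.1 FPKM at 2 h, with replicate 1 the lowest at both times. With the replicate block AN0146 and AN0147 were called higher (adjusted p 0.032 and 0.013), and likewise without replicate 1 at 8 h.

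The time change in BglC was then set beside that in its parent A773, sampled at the same times in libraries of its own. In A773, 4440 genes (48.3%) changed between 8 h and 2 h. Of the 1996 genes higher at 8 h in BglC, 1460 (73.1%) were also called higher in A773, which is 50.5% of the genes called higher there. Of the 978 lower genes, 612 (62.6%) were also lower in A773, which is 39.5% of those lower there. The opposite call was made in A773 for 21 of the higher and 26 of the lower genes. A total of 281 genes were higher at 8 h in all 4 strains and 117 lower. The change itself differed between BglC and A773 in 933 genes (10.1%), with 361 (3.92%) more positive in BglC and 572 (6.22%) more negative. After scaling between libraries 558 were more positive and 538 more negative, a share of 50.9% positive against 38.7% without scaling. Against the mean change of the 3 other strains, the change in BglC differed in 949 genes (10.3%), 544 more positive and 405 more negative. That count was 409 without replicate 3 of BglC at 2 h, 565 without replicate 1 of BglC at 8 h and 1603 without replicate 1 of AbfA at 2 h.

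**Figure D4:**
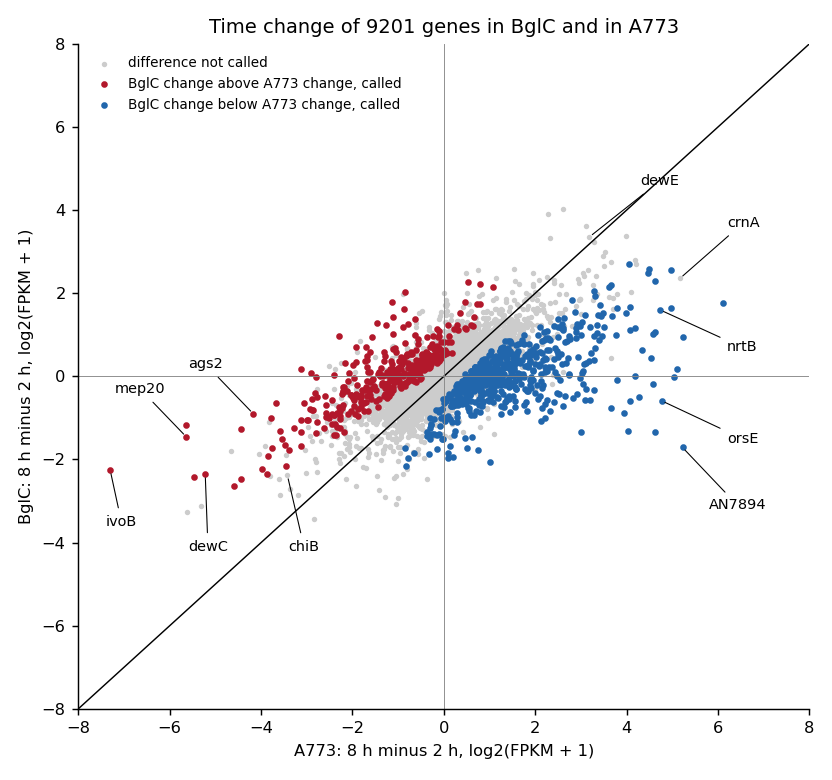
Change of each of 9201 genes between 8 h and 2 h in BglC (vertical axis) and in A773 (horizontal axis), both as 8 h minus 2 h in log2(FPKM + 1), with the line of equal change. Genes whose change is called more positive in BglC are red, more negative blue and not called grey. The ivoB and orsE genes changed by -2.26 and -0.59 in BglC and by -7.30 and 4.77 in A773.

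The time change of starch and maltose genes was more positive in BglC than in the parent in 7 of the 9 listed genes and more negative in none, beside 3.92% and 6.22% of all genes. In BglC 3 of the 9 fell and 1 rose, while in A773 8 fell and none rose (median -1.23), where 16.8% of all genes fell and 31.4% rose. The gene agdC changed by -0.55 in BglC and by -2.90 in A773, where it had 17.2, 15.9 and 15.9 FPKM at 8 h and 119, 127 and 138 FPKM at 2 h. The difference of the changes was 2.35 ± 0.28 (adjusted p 3.3e-05). AN11143 (glaA), which rose in BglC, had 35.0, 58.4 and 47.9 FPKM at 8 h and 63.6, 46.2 and 40.8 FPKM at 2 h in A773, a difference of the changes of 1.18 ± 0.29. The same direction was seen in AN6923 (hxtA), with a difference of 1.54 ± 0.39, and in AN5626 (facA), which was called higher in BglC and lower in A773 (1.22 ± 0.28). These 4 differences were called without each library of the 2 strains. Those of acuF (1.00), agdB (1.19) and AN1797 (hxtB, 0.95) were lost without 6, 7 and 9 of the 12 libraries in turn.

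The genes with the largest positive differences fell steeply in A773 and less, or not, in BglC. The gene ivoB had 2.87, 5.56 and 3.09 FPKM at 8 h and 673, 777 and 779 FPKM at 2 h in A773, a change of -7.30 ± 0.42, so that its change differed by 5.04 ± 0.60 (adjusted p 3.3e-05). AN1941 had 119.8, 187 and 158 FPKM at 8 h and 515, 253 and 310.4 FPKM at 2 h in BglC, and 21.5, 17.3 and 21.0 FPKM at 8 h and 914, 1044 and 1171 FPKM at 2 h in A773. It fell in both strains, by 1.17 in BglC and 5.64 in A773, a difference of 4.47 ± 0.36 (adjusted p 4.1e-07). The metalloprotease gene mep20 had 134, 63.6 and 72.1 FPKM at 8 h and 279, 245 and 189 FPKM at 2 h in BglC, and 2.20, 6.73 and 4.34 FPKM at 8 h and 187, 221 and 393 FPKM at 2 h in A773. The libraries of the 2 strains overlapped at 2 h and lay far apart at 8 h, and the difference was 4.19 ± 0.78. The alpha-glucan synthase gene ags2 (AN5885) fell by 0.90 in BglC, to 4.96, 8.14 and 9.03 FPKM at 8 h against 17.6, 11.6 and 14.1 FPKM at 2 h, and by 4.17 in A773, a difference of 3.28 ± 0.30 (adjusted p 1.9e-06). AN6401 (dewC) changed by -2.36 in BglC and -5.22 in A773, and AN0338 by 0.19 and -3.13, with differences of 2.87 ± 0.48 and 3.32 ± 0.63. The sum of the spore markers listed above was 272, 239 and 271 FPKM at 8 h and 2029, 1491 and 4151 FPKM at 2 h in A773. That sum includes ivoB itself, so it is not separate from the genes of this paragraph. Among the other markers, wA overlapped between the times in A773, with 6.18, 9.08 and 6.27 FPKM at 8 h and 13.7, 6.76 and 15.9 FPKM at 2 h. The part of the markers in the differences was not tested. The other alpha-glucan synthase gene, ags1 (AN3307), had 51.5, 51.6 and 53.7 FPKM at 8 h and 15.2, 54.7 and 29.0 FPKM at 2 h in BglC, and 87.4, 97.8 and 107 FPKM at 8 h and 17.3, 17.7 and 9.97 FPKM at 2 h in A773. Its difference was -1.83 ± 0.43 (adjusted p 0.0093), and its own rise in BglC was not called without any 1 library except replicate 2 at 2 h (0.38 to 0.84), nor with either scaling between libraries.

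In the orsellinic acid and dba clusters most genes rose with time in A773 and none was called in BglC. All 5 orsellinic acid genes rose in A773 and none was called in BglC, and the change was more negative in BglC in 4 of 5. Of all genes, 31.4% rose and 16.8% fell in A773, and 32.3% were called in BglC. The change was more negative in BglC in 6.22% of all genes and more positive in 3.92%. AN7914 (orsE) had 377, 363 and 231 FPKM at 8 h and 248, 537 and 809 FPKM at 2 h in BglC, and 1664, 2144 and 1904 FPKM at 8 h and 152, 39.6 and 52.9 FPKM at 2 h in A773. The BglC libraries of the 2 times overlapped and those of A773 were far apart, and the changes differed by -5.36 ± 0.64 (adjusted p 3.3e-05). AN7913 (orsD) differed by -3.42 ± 0.33 and AN7909 (orsA), listed as the polyketide synthase, by -4.43 ± 1.17, and the difference of orsA was not called without replicate 3 of BglC at 2 h. That of AN7911 (orsB), -4.18, was lost without 8 of the 12 libraries in turn and without both BglC libraries numbered 2. Of the 11 dba genes, 10 rose in A773, and in 9 the change was more negative in BglC. AN7894 had 99.3, 576 and 90.0 FPKM at 8 h and 9.02, 4.37 and 0.869 FPKM at 2 h in A773, a difference of -6.94 ± 1.33 (adjusted p 0.0023), and replicate 2 was the highest of the 8 h libraries of A773. AN7893 of the same cluster differed by -5.35 ± 1.22, and AN11584, in no list, by -5.98 ± 1.33. With voom the differences of AN7894 (-7.46), AN11584 (-6.60), AN7893 (-6.27), AN7897 (-6.58) and AN7911 (orsB, -4.32) were not called (adjusted p 0.076 to 0.13). AN2573, also in no list, had 0.0625, 0.413 and 0.484 FPKM at 8 h and 0, 0.742 and 0.293 FPKM at 2 h in BglC, and 39.6, 49.6 and 29.0 FPKM at 8 h and 0.524, 0.0808 and 0.0707 FPKM at 2 h in A773, so that only the 8 h libraries of A773 exceeded 1 FPKM (difference -5.04 ± 0.40). The 4 emericellamide genes went the other way. AN2547 (easB), listed with that cluster, had 27.7, 21.2 and 19.5 FPKM at 8 h and 24.7, 13.8 and 16.9 FPKM at 2 h in BglC, and 6.16, 11.0 and 8.44 FPKM at 8 h and 37.7, 51.0 and 34.6 FPKM at 2 h in A773. All 4 fell in A773, none was called in BglC, and the change was more positive in BglC in all 4, by 1.54 to 2.47. The nitrate transporter gene AN0399 (nrtB) rose in both strains but by less in BglC, with 178, 168 and 222 FPKM at 8 h and 14.2, 2.66 and 5.38 FPKM at 2 h in A773 and a difference of -3.14 ± 0.73 (adjusted p 0.009).

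**Figure D5:**
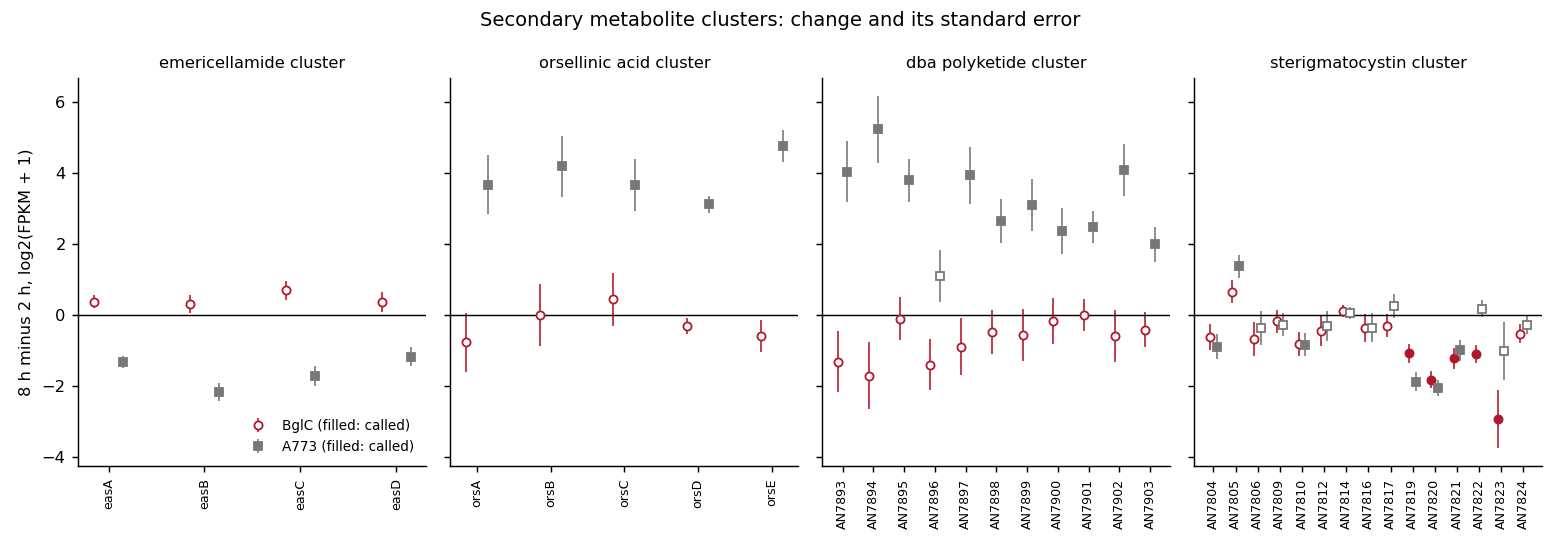
Change of each tested gene of 4 secondary metabolite clusters, 8 h minus 2 h in log2(FPKM + 1), with BglC (red circles) left of A773 (grey squares) for each gene, standard errors as bars and filled marks for called genes. The orsellinic acid and dba genes lie between -1.71 and 0.45 in BglC and mostly above 2 in A773, and the emericellamide genes lie above 0 in BglC and below 0 in A773.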

How the data were processed

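Messenger RNA of A. nidulans mycelium was sequenced in 24 libraries (4 strains, 8 h and 2 h, 3 replicates), and the authors deposited FPKM values, 1 column per library, with no scaling between libraries stated. Per the submitters' processing notes the authors used HTSeq 0.6.0, SAMtools 0.1.18, bcl2fastq 1.8.4, DESeq2 and FastQC, and the notes give neither their roles nor their order. Aligner, genome build and strand settings are not stated in these sources, so reads of overlapping or antisense genes and of near-identical copies could be shared. The FPKM steps gave whole reads for 10631 of 10631 genes (tolerance 0.02 reads), and thus the depths. The gene lengths behind them were multiples of 3 in 9580 of 9604 genes with at least 100 reads and are therefore coding lengths. Names come from a RefSeq names table that matched 9941 of the identifiers and holds a symbol for 779 of them. No sequences of genes, promoters or proteins were used here.

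Group means were fitted to log2(FPKM + 1) over all 24 libraries with limma 3.58.1 in R 4.3.3, with a variance trend, and p-values were adjusted over 9201 genes, with calls at an adjusted p under 0.05. Tables were made with Python 3.11.15, pandas 2.3.3 and numpy 2.4.6. The differences from A773 and from the mean of the other 3 strains are contrasts of the same fit. Single values were tested by exact permutation. The script was tested on simulated data first. The alternatives were other pseudocounts and filters, scaling by the median of ratios, voom with TMM scaling on the recovered reads, a fit of only the strains compared, a block for the replicate number, no variance trend and leaving out each library. Leaving out both BglC libraries numbered 1, or both numbered 2, was added after seeing the data.

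The correlation of deviations between same-numbered libraries at 8 h and 2 h was 0.589, 0.154 and 0.327 in BglC, for the numbers 1, 2 and 3. Between BglC libraries of different number it was -0.586 to 0.455, the highest between replicate 3 at 8 h and replicate 2 at 2 h. The numbers may therefore pair the BglC libraries, most clearly number 1, but these values do not settle it. In the other strains the same-numbered values were -0.181 to 0.153 and showed no pairing. The labels do not say what a number shares. The limma p-values measure the spread between libraries of the same group, taken as 1 value per gene over all 8 groups of the series. They therefore rest on the other strains as well as on the BglC libraries. Only the fit of the 6 BglC libraries alone takes the spread from that strain.

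The strain, the 45 gene lists and the tests were chosen with earlier results of these data known, and no list is independent evidence of its direction. Most genes were named by 1 rule. It takes the 12 largest rises and 12 largest falls among called genes with a name and no overlap between the times, and the 3 largest in each direction with any naming. It adds the 3 most abundant called genes in each direction, up to 4 members with the largest change in each list, and the 5 largest positive and 5 largest negative differences from A773. Other called members of lists (fbp1, xlnR, axeA, niiA, gdhA, hapX, pmt1, pmt4, gmtA, exg2, wetA, fluG, flbE, ipnA, aatA, AN7819 and AN1033) and the library values of marker genes were named after their values were seen. AN2016 (amyR), chsB and chsD, which were not called, were also named outside that rule. One called member of a list is not reported here.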

Additional observations from a re-analysis of the deposited data

Results flagged for a closer look

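The results here are named genes whose change between 8 h and 2 h in BglC differed from the change in A773 by the test of the difference itself (limma, adjusted over all 9201 genes). Each value is the change in BglC minus the change in A773 on the log2 scale. No explanation was tested for any of them.

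In carbon use the differences were 2.35 in agdC, 1.54 in AN6923 (hxtA), 1.22 in AN5626 (facA), 1.19 in AN8953 (agdB), 1.18 in AN11143 (glaA), 1.00 in acuF and 0.95 in AN1797 (hxtB). In the genes of alpha-glucan they were 3.28 in ags2, -1.57 in AN3309 (amyG) and -1.83 in ags1. In other genes of the cell wall and its breakdown they were 4.19 in mep20, 2.28 in AN5558 (prtA), -0.63 in sun1 and -0.68 in btgE, and in pmeA -1.47. In genes of conidiophores and spores they were 5.04 in ivoB and 2.87 in AN6401 (dewC), and in laeA 1.13.

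The secondary metabolite genes gave both directions. The emericellamide genes differed by 2.47 in AN2547 (easB), 2.41 in AN2548 (easC), 1.70 in AN2545 (easA) and 1.54 in AN2549 (easD). The orsellinic acid genes differed by -5.36 in AN7914 (orsE), -4.43 in AN7909 (orsA), -4.18 in AN7911 (orsB) and -3.42 in AN7913 (orsD). The dba genes differed by -6.94 in AN7894, -5.35 in AN7893 and -4.83 in AN7897. AN8514 (tdiB) differed by -3.08 and AN7822 of the sterigmatocystin cluster by -1.27.

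Among the remaining genes the differences were 4.47 in AN1941, 3.32 in AN0338, -5.98 in AN11584, -5.04 in AN2573, -3.14 in AN0399 (nrtB), -1.52 in pmcC and -1.39 in aah1. The difference was 1.62 in AN7388 (cpeA), listed as a catalase-peroxidase. In genes of protein synthesis, folding and transport it was 0.77 in rps0, 0.74 in clxA, 0.72 in bipA and 0.53 in sec31. Of the 43 differences, 26 were called without each of the 12 libraries of both strains, and 17 were lost without at least 1 of them, among them those of cpeA, rps0, clxA, bipA, sec31, pmeA, prtA, tdiB, orsB and pmcC.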

How the results depend on the processing

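The number of genes changed between 8 h and 2 h in BglC was 2841 to 3084 with other pseudocounts, filters or scaling, with voom or with no variance trend, and 2306 to 2988 without each library, against 2974 as reported. The fit of only the 6 BglC libraries called 1778 genes, 1152 higher and 626 lower. Leaving out both libraries numbered 2 called 1956 genes, 1176 of them higher, and leaving out both numbered 1 called 2432. With the replicate block 2908 genes were called, and 2471 with the block in the 6 libraries alone, where the numbers may pair the libraries. For the difference from A773 the count was 646 to 1164 without each library and 868 with the replicate block, against 933. For the difference from the 3 other strains it was 409 to 1603 without each library, and 601 without both libraries numbered 2, against 949. The cause of these differences in count was not tested. Fits that leave libraries out also rest on fewer of them. Of 110 calls of named genes in BglC, 70 held without each library and 40 were lost without at least 1 of them. No called value turned its direction under any alternative run, and 22 of the 88 named genes that were not called changed sign without at least 1 library. Over both comparisons the replicate block over all libraries ended 7 of 153 calls of named genes and added 6, and it changed no other call of a named gene. The block over only the libraries of the strains compared ended 20 and added 15, and the fit of those libraries without the block ended 43 and added 1. The changes in BglC whose call ended with that block included those of ags1, fumA, gabA, velB, pdiA, yap1, gel1, pab1, tif1 and alg10, and the differences from A773 were those of pmeA, glaA, agdB, hxtA, bipA, clxA, rps0, sec31 and btgE. Depth limits low genes most, since a gene under 1 FPKM rests on few reads, and 3 libraries per group limit all calls of small changes.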

Other observations

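Some listed gene groups that no comparison above describes gave few calls between 8 h and 2 h in BglC. Of 12 genes for peroxisomes, the organelles that break down fatty acids, 2 rose and 10 were not called (median 0.40), beside 21.7% of all genes that rose. The docking protein gene pex14 (AN10610) rose by 0.61 ± 0.13, with 24.4, 27.8 and 24.9 FPKM at 8 h and 21.0, 14.7 and 14.4 FPKM at 2 h. The list held 7 rises without replicate 1 at 2 h, 6 without both libraries numbered 1 and 1 without replicate 2 or 3 at 2 h or replicate 2 at 8 h. Of 8 genes for protein import into mitochondria, tim21 (AN6034) rose by 0.63 ± 0.15, pam18 (AN4559) fell by 0.50 and 6 were not called. Of 8 genes of oxidative stress defence, the catalase gene cat1 (AN9339) rose by 1.11 ± 0.35, yap1 (AN7513) rose by 0.30 and AN7388 (cpeA), listed as a catalase-peroxidase, fell by 0.97. The call of cat1 ended without replicate 1 at 2 h (0.83) or replicate 3 at 8 h (1.02), that of yap1 without replicates 1 or 3 at 2 h or 2 or 3 at 8 h (0.22 to 0.31), and that of cpeA without any 1 library except replicate 3 at 2 h (-1.01 to -0.77). None of the 3 was called without both libraries numbered 1, and fgaCat (AN5918), at 0.71, was called with the replicate block (adjusted p 0.024).

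Of 4 genes of polyols and trehalose, gldB (AN5563), for glycerol dehydrogenase, rose by 0.94 ± 0.21, with 316, 279 and 225 FPKM at 8 h and 172, 156 and 103 FPKM at 2 h, and AN0351 (gfdA), listed as glycerol-3-phosphate dehydrogenase, fell by 0.52. Both calls held without each library. Of 4 genes of the alpha-glucan cluster, ags1 and AN3308 (amyD) were called higher and ags2 lower. The call of amyD, 0.96, ended without replicate 1 at 2 h or without replicate 2 or 3 at 8 h (0.52 to 0.90). Of 6 genes of proline and GABA use, gatA fell, AN5678 (gabA) rose by 0.36 and 4 were not called, and the call of gabA ended without replicate 1 or 2 at 2 h or replicate 2 or 3 at 8 h (0.25 to 0.37). Of 8 asperfuranone genes 2 passed the filter on low values, of which AN1033 rose by 0.54, a call lost without 5 of the 6 libraries in turn, with voom and in the fit of only the 6 libraries. By limma, 0 of 7 tRNA modification genes, 0 of 7 genes of vesicle transport from the endoplasmic reticulum and 0 of 3 tyrosine breakdown genes were called. An unadjusted p under 0.05 was found in 1 gene of each of these 3 lists, and voom called 1, 1 and 0. The tyrosine gene fahA (AN1896), at 0.98, was called higher with the replicate block (adjusted p 0.04).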
